A study of Mus musculus with 6 samples.

Results

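Phosphatases and PIAS proteins are brakes on STAT transcription factors, and 10 of their genes are described here in Lewis lung carcinoma (LLC) cells. They are the receptor tyrosine phosphatases Ptprt, Ptprd and Ptprk, the cytosolic tyrosine phosphatases Ptpn1, Ptpn2, Ptpn6 and Ptpn11, and the PIAS genes Pias1, Pias2 and Pias3. The genes were chosen by symbol, and 9 of the 10 had a row among the 18182 genes with a row in any library. Ptprd had no row in the tables used here and is not analysed. The list follows what the proteins do, but it was drawn up with the log2 fold changes of this same comparison known, and Ptprt was selected on its fall.

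STAT proteins are latent factors that Janus kinases (JAKs) phosphorylate on a tyrosine after a cytokine binds its receptor, and phosphorylated STAT dimers then enter the nucleus and switch on target genes. Tyrosine phosphatases end the signal by removing that phosphate from STATs, from JAKs or from the receptor. PIAS proteins act in the nucleus, where they bind activated STATs, block their contact with DNA and help to attach the small protein SUMO to them and to many other factors. In tumours, loss of such brakes is one known route to lasting STAT3 activity.

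The LLC line was grown from a lung carcinoma of a C57BL/6 mouse, and here it carried a red fluorescent protein (RFP). Wild type C57BL/6 mice received the labelled LLC cells under the skin, either alone (LLC alone, n = 3 libraries) or together with bone marrow-derived mesenchymal stem cells (LLC with BMSCs, n = 3 libraries), and RFP-positive cells were sorted from the primary tumours for poly-A RNA sequencing. All cells thus passed through the same sort and the same host strain, and the groups differed by the injected BMSCs. The study's methods describe its allografts in young females of this strain, with luciferase-labelled LLC cells as the example, and the sample labels state neither age nor sex. The sources used here do not say whether a library holds 1 tumour or several, so the p values measure the spread between libraries, which may be technical. In a sorted bulk sample, fewer cells of a type and less RNA per cell cannot be told apart.

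The libraries held 33476347 to 46189113 counted fragments. LLC alone replicate 3 stood apart from the others over transcript length, since genes of the lowest length quintile lay a median of 0.31 above the 6-library mean in log2 CPM there, and those of the highest lay at -0.37. The trend also split by group. Libraries with BMSCs lay at -0.19, -0.09 and -0.11 for the lowest quintile and at 0.18, 0.10 and 0.13 for the highest. LLC alone replicates 1 and 2 lay at 0.06 and 0.04, and at -0.02 and -0.003. Leaving out LLC alone replicate 3 thus does not remove the trend from the comparison. Several results for genes with long transcripts are given also without that library, and some with the length trend removed. Of 6 epithelial markers, Krt8 alone was above 1 FPKM (95.3 ± 5.98, SD, n = 3, in LLC alone), and Epcam and Cdh1 were at 0.03 FPKM or less in both groups on average. Markers of other cells differed between the groups: the summed level of 8 macrophage genes was 24.05 to 28.8 CPM (counts scaled to a common library size) in LLC alone and 36.0 to 38.6 in LLC with BMSCs, with 6 genes higher and Cd68 lower. The sum of 7 neutrophil genes was 0.43 to 0.73 against 17.7 to 20.4 CPM, with 5 of 5 tested genes higher. That of 8 mesenchymal genes was 267 to 324 against 675 to 703 CPM, with 7 of 7 tested genes higher. Ptprc, Adgre1, Mrc1, Itgam, S100a8, S100a9, Csf3r, Mpo, Col1a1, Lum and Dcn passed the filter on low counts only through the group with BMSCs. Calls of these genes could only go upward, and over all tested genes 31.5% were called higher. None of 8 lymphocyte genes was abundant enough to be tested, and the 1 endothelial gene of 5 that was tested, Pecam1, did not pass.

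Levels are given as FPKM, fragments scaled by transcript length and by library size, which allows genes to be set beside each other. Differences are log2 fold changes of LLC with BMSCs over LLC alone, fitted on estimated counts, with their standard error (SE). A gene was taken as changed at a Benjamini-Hochberg adjusted p under 0.05 in edgeR's quasi-likelihood test over 13353 genes. By this rule 4 of the 9 genes changed, Ptprk and Ptpn6 upward and Ptprt and Pias3 downward, while 62.9% of all tested genes changed, 31.5% upward and 31.3% downward. The list was drawn up with this comparison in view, and nothing is read from that count. The median log2 fold change was -0.05 over the 9 genes and 0.01 over all tested genes. In 6 of the 9 genes the FPKM values of the groups did not overlap, as in 70.6% of all tested genes.

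**Figure D1:**
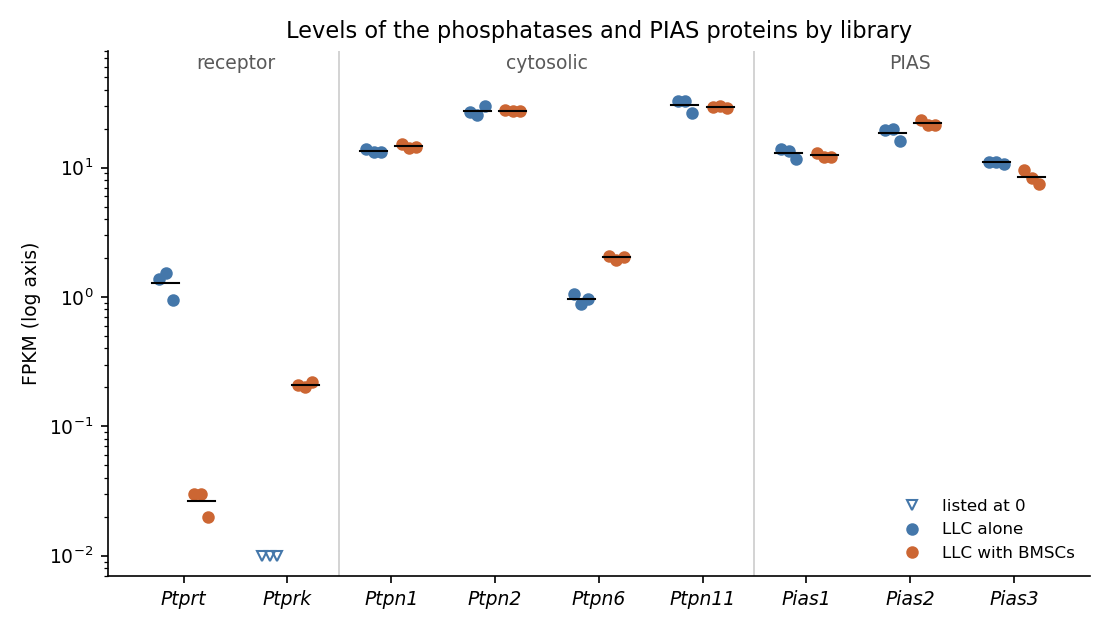
FPKM on a log axis in each of the 3 LLC alone libraries (blue) and 3 LLC with BMSCs libraries (orange), with black bars at the group means and open triangles for libraries listed at 0. Ptprt drops from 1.28 to 0.03 FPKM on average, Ptprk appears only in the BMSC group, Ptpn6 rises to 2.02, Pias3 declines to 8.46, and the other genes stay between 11.62 and 32.96 FPKM.

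Both receptor phosphatases with a row were scarce. Ptprt (NCBI gene 19281), a transmembrane phosphatase of the R2B family known to remove the activating phosphate of STAT3, had 1.38, 1.52 and 0.94 FPKM in replicates 1 to 3 of LLC alone, against 0.03, 0.03 and 0.02 FPKM in those with BMSCs. All 3 libraries with BMSCs lay far below the lowest library of LLC alone. As estimated counts these were 614, 489 and 414 fragments against 15, 14 and 11. The fitted log2 fold change was -5.35 (SE 0.26), a 40.8-fold fall, which is given as a description because this gene was picked for it. Absolute log2 fold changes of at least 5 occurred in 1.66% of all tested genes. Without LLC alone replicate 3, the value was -5.53.

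In LLC alone, little of the Ptprt signal lay on its known transcripts, and 96.1% to 98.9% of the gene's FPKM fell on a transcript of 9593 bases that the authors' pipeline had assembled, with estimated counts of 584, 467 and 409. In LLC with BMSCs this transcript held 5.39, 14.0 and 6.20 counts, and the RefSeq transcript NM_021464 held 9.61, 0 and 4.80, which made up 66.7%, 0% and 50% of the gene's FPKM. So few counts do not settle how the remaining signal was divided. The 3 RefSeq transcripts of Ptprt, each about 12 kilobases long, together reached at most 30.4 counts in a library. The files give no exons or coordinates for the assembled transcript, so it is not known here whether it encodes the whole phosphatase.

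Ptprk (NCBI gene 19272), the second member of the R2B family in the list and a phosphatase of cell contacts, was seen only in the group with BMSCs. It was not listed in any LLC alone library and had 0.21, 0.20 and 0.22 FPKM in the libraries with BMSCs, from 56, 53 and 60 fragments of its transcript NM_008983. Each library with BMSCs lay above the limit of 3 counts that an observation of 0 allows, and the rise was at least 17.2-fold when the LLC alone libraries were set to that limit. Ptprk passed the filter on low counts only through the group in which it was present, so its call could only go upward. Its level stayed low, and the macrophage, neutrophil and mesenchymal marker sums given above moved the same way; their part in the result was not tested. Summed, Ptprt and Ptprk went from 1.28 ± 0.30 FPKM (SD, n = 3) to 0.24 ± 0.01 (SD, n = 3).

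The promoters of these receptor phosphatases are shown because STATs bind DNA at TTCNNNGAA, and the wider spacing TTCNNNNGAA is favoured by STAT6. They are the 250 bases before the RefSeq start on the gene's strand (GRCm38.p6), at chr2:162661148-162661397 on the minus strand for Ptprt and chr10:28074570-28074819 on the plus strand for Ptprk, with a match to either motif in capitals. The start of the assembled Ptprt transcript is not in the files and may lie elsewhere.
Ptprt: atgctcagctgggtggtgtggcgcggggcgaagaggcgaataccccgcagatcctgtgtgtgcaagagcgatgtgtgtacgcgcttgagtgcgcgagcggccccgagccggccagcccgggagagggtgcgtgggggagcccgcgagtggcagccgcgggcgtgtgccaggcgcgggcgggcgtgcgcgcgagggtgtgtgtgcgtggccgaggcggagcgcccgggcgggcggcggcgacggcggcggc
Ptprk: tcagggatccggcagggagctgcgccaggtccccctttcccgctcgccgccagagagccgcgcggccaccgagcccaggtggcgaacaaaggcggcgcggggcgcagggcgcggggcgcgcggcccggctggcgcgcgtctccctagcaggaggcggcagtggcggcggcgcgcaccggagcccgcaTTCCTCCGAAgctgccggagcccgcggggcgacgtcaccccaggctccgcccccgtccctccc
RefSeq windows of 300 bases, 250 before the start and 50 after it, were found for 7 of the 10 genes, in 8 windows. The only Ptpn6 window lies at the upstream of its starts, so the downstream promoter, that of its main transcript NM_013545, was not searched. The Ptprk match was the only one among them. TTCNNNGAA, which reads the same on both strands, was in 0 of the 8 windows and in 8.3% of all 32851 windows of that length, and TTCNNNNGAA, also a palindrome, in 1 and 6.95%. The interferon motif GAAANNGAAA, searched on both strands, was in 0 of the 8 and in 3.44% of all. The 8 windows were rich in G and C, at 60.0% to 77.3% against a median of 52.7% over all windows. A match is a description of letters and not a bound site.

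The cytosolic phosphatases were the abundant class, and with all 6 libraries only the scarcest of them passed the test. Together the 4 genes held 72.6 ± 2.07 FPKM in LLC alone and 73.4 ± 0.93 in LLC with BMSCs (SD, n = 3 each). Ptpn6 encodes SHP-1, a phosphatase with a pair of SH2 domains that is best known from blood cells, where it shuts off JAKs and their receptors. Its levels were 1.06, 0.88 and 0.97 FPKM in LLC alone and 2.09, 1.93 and 2.05 in LLC with BMSCs. The groups were well apart, and the spread within each was small. The log2 fold change was 1.04 (SE 0.11), with an adjusted p of 0.000145 (edgeR quasi-likelihood test, Benjamini-Hochberg), from 105, 63 and 96 against 200, 183 and 193 fragments. Over the 17 alternative fits in which it was tested, the value stayed between 0.62 and 1.12 and passed the test in each.

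Ptpn6 is read from alternative promoters that give the protein different first residues. In human cells the upstream promoter is the one of epithelial cells and the downstream one that of blood cells. In the mouse annotation (GENCODE M21, GRCm38) the gene lies on the minus strand of chromosome 6, and the start of NM_013545 is 5560 bases downstream of that of NM_001077705. The first 30 coding bases of the 2 transcripts are shown because they tell the promoters apart, with the bases that belong to only 1 of them in capitals.
Ptpn6 NM_001077705: ATGTTGTCCCGCGggtggtttcaccgggac
Ptpn6 NM_013545: ATGGTGAggtggtttcaccgggacctcagc
By estimated counts, the rise lay on the transcript with the downstream start. Beyond the bases in capitals the 2 coding sequences are alike, so fragments from there cannot tell the transcripts apart. NM_013545 had estimated counts of 86.0, 63.0 and 96.0 in LLC alone and 190, 167 and 193 in LLC with BMSCs, with no overlap between groups and a log2 fold change of 1.06 (SE 0.17, adjusted p = 0.0068, edgeR quasi-likelihood test with Benjamini-Hochberg adjustment over 24255 transcripts, of which 34.2% passed). NM_001077705 held 19.0, 0 and 0 counts against 9.92, 16.4 and 0, too few to be tested. NM_013545 thus took 94.0% ± 10.3 of the gene's FPKM in LLC alone and 95.5% ± 4.41 in LLC with BMSCs (SD, n = 3 each). Exons of Ptpn6 share 195 bases with Gm20531 on the opposite strand, and the sources used here do not say whether counting used the strand.

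The level of Ptpn6 moved with many, but not all, markers of leukocytes. Ptprc, the receptor phosphatase CD45 that defines them, had 0.01, 0.05 and 0.03 FPKM in LLC alone and 0.41, 0.49 and 0.45 in LLC with BMSCs. With 3, 8 and 8 fragments in LLC alone it passed the filter on low counts only through the group with BMSCs, so its call could only go upward and is not used here. The macrophage marker Adgre1 was listed at 0 in LLC alone and was at 0.48 ± 0.07 FPKM with BMSCs, and Csf1r went from 0.11 to 0.53 FPKM on average. More abundant macrophage genes went different ways. Cd68 fell from 5.55 ± 0.51 to 3.03 ± 0.36 FPKM, and Lyz2 rose from 3.08 ± 0.57 to 4.71 ± 0.23 FPKM (SD, n = 3 each). Cd14 had 9.49 ± 0.97 and 10.1 ± 0.87 FPKM (SD, n = 3 each) and did not pass. Among the neutrophil genes, S100a8 and S100a9 were at 20.2 ± 2.20 and 22.4 ± 2.90 FPKM with BMSCs (SD, n = 3 each) and at 0.09 and 0.02 FPKM on average in LLC alone, while Ly6g was at 0.08 FPKM or less on average in both groups. The part of such cells in the rise of Ptpn6 was not tested.

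Ptpn11 encodes SHP-2, the close relative of SHP-1 that also carries growth factor signals forward to the RAS pathway. It was the highest of the 9 genes in both groups, with 32.73, 32.96 and 26.40 FPKM in LLC alone and 29.5, 29.8 and 28.9 in LLC with BMSCs. LLC alone replicate 3 lay below every library with BMSCs and replicates 1 and 2 above them, so the groups overlapped. The log2 fold change was -0.08 (SE 0.09, 95% interval -0.26 to 0.09), with an adjusted p of 0.44 (edgeR quasi-likelihood test, Benjamini-Hochberg). Without LLC alone replicate 3 it was -0.17 (adjusted p = 0.0057, same test), and with each library's trend over transcript length removed it was -0.29 (adjusted p = 0.00015, same test), so that leaving out this 1 library changes the call. The level of Ptpn6 relative to Ptpn11 went from 3.19% ± 0.50 to 6.88% ± 0.35 (SD, n = 3 each).

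Reads of Ptpn11 were split between transcripts that differ by 12 coding bases in the phosphatase region, which are in capitals below, in 1 of the placements that give the same sequence. Coding bases are numbered from the start codon, and the stretch begins at base 1202 in both. The coding sequences hold 597 codons (NM_011202) and 593 codons (NM_001109992) without the stop.
Ptpn11 NM_011202: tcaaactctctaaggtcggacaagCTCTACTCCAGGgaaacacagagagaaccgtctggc
Ptpn11 NM_001109992: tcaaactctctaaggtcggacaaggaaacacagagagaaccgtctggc
The longer form took 52.7%, 58.9% and 52.1% of the FPKM in LLC alone and 59.0%, 48.9% and 45.2% in LLC with BMSCs. The groups overlapped, and an exact two-sided permutation test of the 3 against 3 shares gave p = 0.5, where 0.1 is the smallest this design allows. Over the 6 genes whose transcript shares were compared, Benjamini-Hochberg adjusted values were 0.6 to 1.0. Neither form passed the transcript test.

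**Figure D2:**
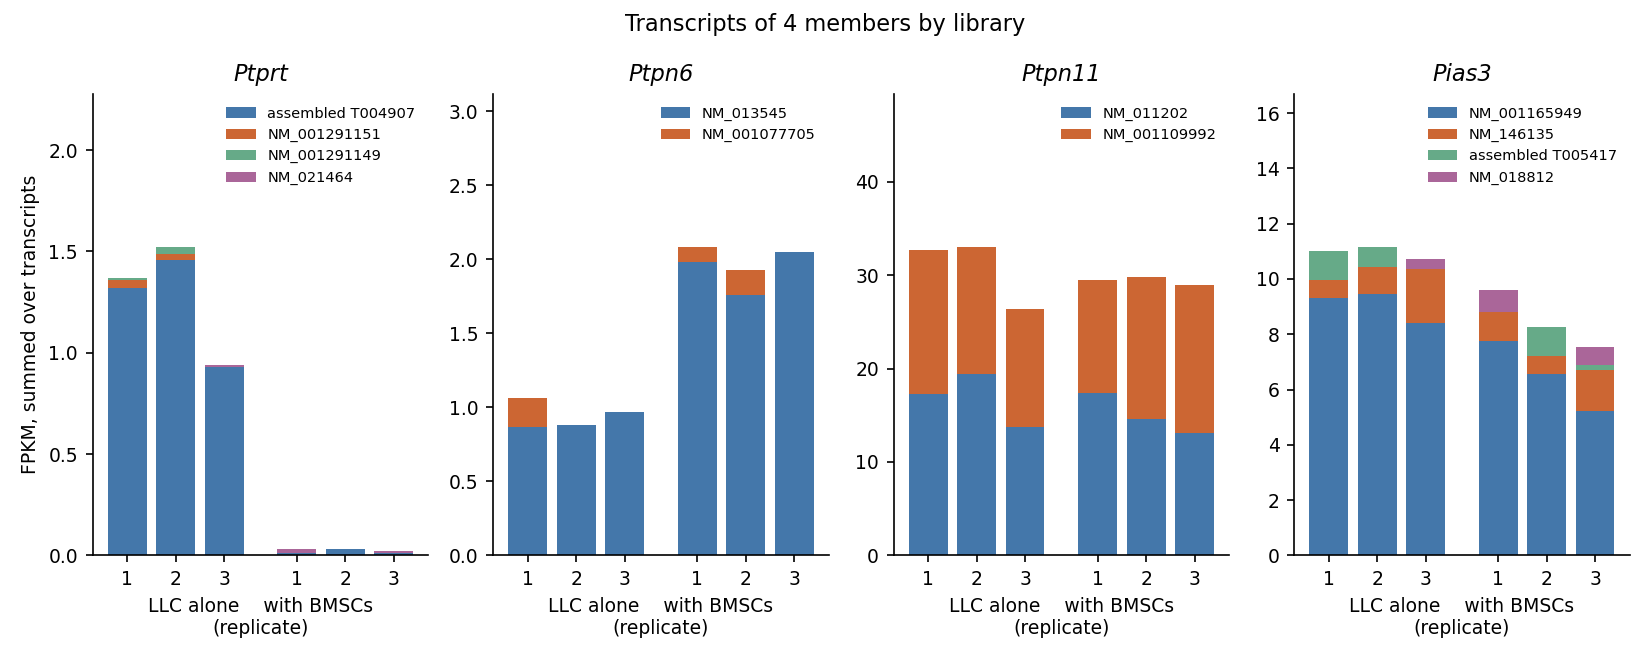
FPKM of each transcript, stacked, in the 3 LLC alone and 3 LLC with BMSCs libraries for 4 genes, each panel with its own axis from 0. In LLC alone the Ptprt signal is nearly all on 1 assembled transcript, Ptpn6 is mostly NM_013545 in both groups, Ptpn11 is split between 2 forms, and Pias3 is mostly NM_001165949.

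Ptpn1 and Ptpn2 encode the sister enzymes PTP1B and TC-PTP, of which the first acts on JAK2 and TYK2 at the endoplasmic reticulum and the second on JAK1, JAK3 and nuclear STATs. Ptpn1 had 14.0, 13.3 and 13.3 FPKM in LLC alone and 15.1, 14.3 and 14.5 in LLC with BMSCs. Every library with BMSCs was above every library without, by a small margin. The log2 fold change of 0.10 (SE 0.06, 95% interval -0.02 to 0.21) had an adjusted p of 0.18 (edgeR quasi-likelihood test, Benjamini-Hochberg). Ptpn2 had 26.8, 25.6 and 29.8 FPKM against 27.7, 27.3 and 27.1 FPKM, and its libraries with BMSCs lay within the range of the others. Its log2 fold change of -0.05 (SE 0.08, 95% interval -0.20 to 0.10) had an adjusted p of 0.58 in the same edgeR test with Benjamini-Hochberg adjustment. Changes beyond about 0.2 on the log2 scale in either gene thus lay outside the interval, which is narrower than the test would give. A p above 0.05 does not show that the levels were equal. Of Ptpn2, 97.5% ± 0.29 of the FPKM in LLC alone and 98.0% ± 0.22 with BMSCs (SD, n = 3 each) fell on NM_008977, whose coding sequence has 382 codons; the form of 406 codons, NM_001127177, held the rest.

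Among the PIAS genes, Pias3 fell. PIAS3 was named as the inhibitor of activated STAT3, whose binding to DNA it blocks. Pias3 (NCBI gene 229615) had 11.02, 11.13 and 10.73 FPKM in LLC alone and 9.59, 8.28 and 7.52 in LLC with BMSCs. The values of LLC alone lay close together, those with BMSCs were spread wider, and all of the latter were lower. The log2 fold change was -0.39 (SE 0.09), with an adjusted p of 0.0062 (edgeR quasi-likelihood test, Benjamini-Hochberg). It ranged from -0.50 to -0.31 as each library was left out in turn and passed each time. Where the closest libraries of each group were summed, which left 2 against 2, it was -0.35 with an adjusted p of 0.053 (same edgeR test with Benjamini-Hochberg adjustment). Estimated counts of Pias3 were not whole in 3 of the 6 libraries, and its exons share 4 bases with Nudt17 on the other strand.

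Most of Pias3 was the transcript NM_001165949, which begins on chromosome 3 at 96697083 (GENCODE M21, GRCm38, plus strand), 699 bases downstream of NM_146135. Its levels were 9.30, 9.45 and 8.41 FPKM in LLC alone and 7.76, 6.57 and 5.23 in LLC with BMSCs, without overlap. Its log2 fold change of -0.51 (SE 0.15) just missed the transcript test, at an adjusted p of 0.051 (edgeR quasi-likelihood test, Benjamini-Hochberg). Its share of the gene was 82.5% ± 3.60 in LLC alone and 76.6% ± 6.18 with BMSCs (SD, n = 3 each), and the shares overlapped (exact permutation p = 0.3, two-sided). As each library was left out, the value for the transcript ranged from -0.65 to -0.37. It passed without LLC with BMSCs replicate 1 (-0.65, adjusted p = 0.030) and missed in the other 5 fits, with adjusted p of 0.071 to 0.13, all in the same edgeR test with Benjamini-Hochberg adjustment.

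Pias1, a STAT inhibitor and SUMO ligase, had 14.0, 13.5 and 11.6 FPKM in LLC alone and 13.1, 12.2 and 12.1 in LLC with BMSCs. The groups overlapped because LLC alone replicate 3 was the lowest of all 6. The log2 fold change was -0.09 (SE 0.08, 95% interval -0.25 to 0.07), with an adjusted p of 0.36 (edgeR quasi-likelihood test, Benjamini-Hochberg). Without LLC alone replicate 3 it was -0.16 (adjusted p = 0.021), and with the length trend removed -0.16 (adjusted p = 0.025), both in the same edgeR test with Benjamini-Hochberg adjustment, so that here too leaving out that 1 library changes the call.

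Pias2, also called PIASx, a SUMO ligase known as a cofactor of STAT4 and of the androgen receptor, was the most abundant PIAS gene of the 3. It had 19.5, 19.9 and 16.1 FPKM in LLC alone and 23.4, 21.4 and 21.5 in LLC with BMSCs. All libraries with BMSCs were higher. The gene length by which the authors divided was 3340 to 3737 bases in LLC alone and 3185 to 3231 bases with BMSCs. The shorter length makes the difference larger in FPKM than on counts. The log2 fold change on counts was 0.13 (SE 0.07, 95% interval -0.00016 to 0.26), with an adjusted p of 0.12 (edgeR quasi-likelihood test, Benjamini-Hochberg). On log2(FPKM + 1) it was 0.25 (adjusted p = 0.037, limma, Benjamini-Hochberg), which passed, but without the filter on low FPKM the same limma value had a Benjamini-Hochberg adjusted p of 0.061. The short transcript NM_001164169, of 2073 bases, took 50.2% ± 9.99 of the FPKM in LLC alone and 58.7% ± 1.18 with BMSCs (SD, n = 3 each; exact two-sided permutation p = 0.1, the smallest possible). LLC alone replicate 3 was the low value, at 38.7%.

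**Figure D3:**
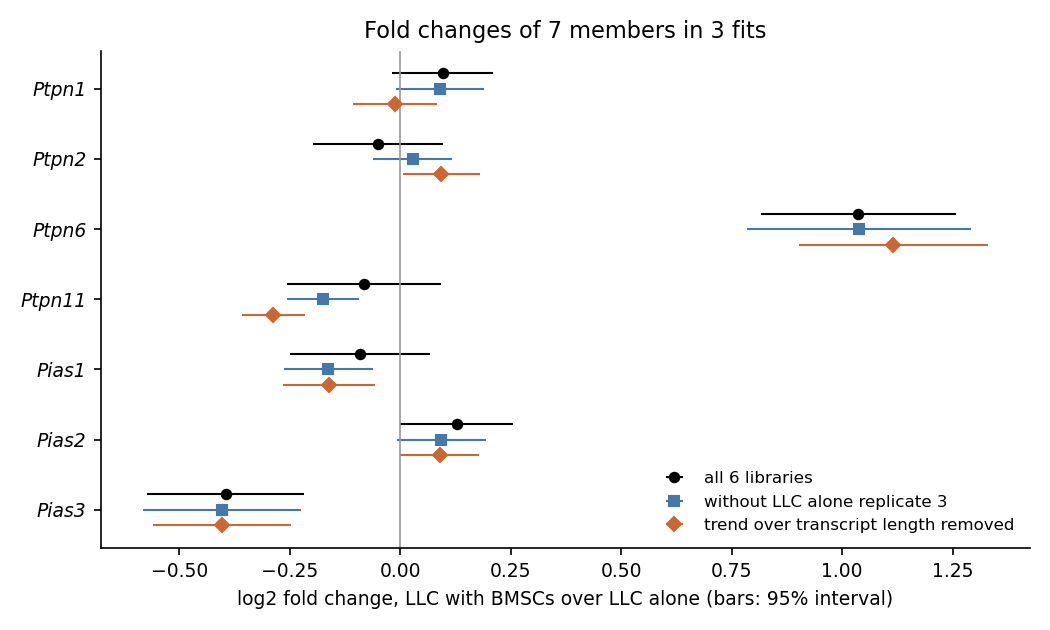
Log2 fold changes of LLC with BMSCs over LLC alone for 7 of the 9 genes, leaving out Ptprk, at 0 in LLC alone, and Ptprt, picked for its fall, with bars for the 95% interval, from all 6 libraries (black), without LLC alone replicate 3 (blue) and with the trend over transcript length removed (orange). Ptpn6 stays near 1.0 and Pias3 near -0.4 in all 3 fits, while the intervals of Ptpn11 and Pias1 include 0 only with all 6 libraries.

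Pias4, the remaining PIAS gene, had 23.1, 23.5 and 22.1 FPKM in LLC alone and 20.3, 18.9 and 18.8 in LLC with BMSCs. Its groups did not overlap. Its log2 fold change was -0.26 (SE 0.06, adjusted p = 0.0051), and -0.11 (adjusted p = 0.21) with the length trend removed, both from edgeR's quasi-likelihood test with Benjamini-Hochberg adjustment. Of the summed FPKM of Pias1 to Pias4, Pias3 made up 16.3%, 16.4% and 17.7% in LLC alone and 14.5%, 13.6% and 12.5% in LLC with BMSCs. Pias3 thus took a smaller share in each library with BMSCs. The sum of Pias1, Pias2 and Pias3 was 42.5 ± 3.52 and 43.0 ± 2.67 FPKM (SD, n = 3 each). Pias2 enters both the share and the sum with the shorter length in LLC with BMSCs given above.

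The order of levels changed only among the scarce genes. In LLC alone it ran from Ptpn11, with 30.7 FPKM on average, over Ptpn2 (27.4), Pias2 (18.5), Ptpn1 (13.5), Pias1 (13.1) and Pias3 (10.96) to Ptprt (1.28), Ptpn6 (0.97) and Ptprk (listed at 0). The ranges of the neighbours Ptpn11 and Ptpn2, Ptpn1 and Pias1, and Ptprt and Ptpn6 overlapped there. With BMSCs the first 6 genes kept this order, and Ptpn6 (2.02 FPKM) stood above Ptprk (0.21) and Ptprt (0.03), with no overlap between neighbours. The 9 genes summed to 116 ± 5.72 FPKM in LLC alone and 117 ± 3.58 in LLC with BMSCs (SD, n = 3 each).

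Of 10 tested JAK and STAT genes, 9 were higher with BMSCs, against 31.5% of all tested genes, none was lower, and Stat5b did not pass. Leaving out LLC alone replicate 3 gave 8, and leaving out LLC with BMSCs replicate 1 or removing the length trend gave 7. In those 3 fits, 4736 of 13541, 3771 of 13547 and 4758 of 13353 tested genes were called higher. Stat3, the substrate of Ptprt and the target of Pias3, had 11.4, 12.2 and 10.5 FPKM in LLC alone and 27.8, 26.3 and 26.4 in LLC with BMSCs (log2 fold change 1.22, SE 0.07, adjusted p = 5.88e-06, edgeR quasi-likelihood test with Benjamini-Hochberg adjustment). Stat2, a factor of interferon signalling, went from 1.76 to 21.4 FPKM on average (log2 fold change 3.58, SE 0.07). The median log2 fold change of the 10 genes was 0.67.

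SOCS proteins are inhibitors that STATs themselves induce, and of 7 tested SOCS and CISH genes 2 rose (31.5% over all tested genes), none fell and 5 did not pass. Socs3, which blocks JAK signalling at the gp130 receptor and is a classical STAT3 target, had 7.17, 7.37 and 8.05 FPKM against 33.3, 31.0 and 30.2 FPKM (log2 fold change 2.04, SE 0.07). Cish, which passed at a low level, had 0.33 ± 0.04 and 0.57 ± 0.13 FPKM (SD, n = 3 each). All 3 dual-specificity phosphatases known to act on STATs were called lower on counts, as were 31.3% of all tested genes. Dusp2 went from 10.5 ± 1.39 to 5.36 ± 0.36 FPKM (log2 fold change -0.99, SE 0.11) and Dusp3 from 11.7 ± 0.60 to 6.25 ± 0.28 FPKM (log2 fold change -0.93, SE 0.06). Dusp22 had a log2 fold change of -0.23 (SE 0.06), which no longer passed without LLC with BMSCs replicate 3 (-0.23) or with the length trend removed (-0.13). Its FPKM values overlapped, at 8.21, 8.23 and 8.81 against 7.81, 8.24 and 8.36, and the length by which the authors divided was 2123 to 2203 bases in LLC alone and 1911 to 1954 bases with BMSCs.

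Of 18 other receptor phosphatases, 17 had a row and 11 were tested, of which 8 were called higher, 2 lower and 1 neither, beside 31.5% and 31.3% of all tested genes. Of the 8, Ptprg (0 fragments in every LLC alone library), Ptprc and Ptprq passed the filter on low counts only through the group with BMSCs, so that their calls could only go upward. Ptprs, a receptor of proteoglycans, went from 32.3 ± 5.0 to 58.7 ± 2.50 FPKM (log2 fold change 0.85, SE 0.12, and 0.72 without LLC alone replicate 3). Ptprn, a protein of secretory granules without catalytic activity, went from 29.8 ± 1.29 to 44.5 ± 3.14 FPKM (log2 fold change 0.56, SE 0.07). Ptprm, another R2B phosphatase, fell from 5.95 ± 0.96 to 3.37 ± 0.20 FPKM (log2 fold change -0.84, SE 0.12, and -0.96 without LLC alone replicate 3). Ptpru, the remaining one, was at 0.14 and 0.02 FPKM on average. It was chosen for mention after its value was seen, and it passed the filter only through LLC alone, so its call could only go downward.

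Of 13 other cytosolic phosphatases, 11 were tested, of which 2 rose, none fell and 9 did not pass, beside 62.9% called over all tested genes. As any LLC alone library was left out, with the replicate number as a block or with the length trend removed, 3 rose. Over all genes, 3878 to 4758 were called higher in those fits, of 13353 to 13546 tested. Ptpn13, a large phosphatase bound to the cytoskeleton, went from 0.86 ± 0.19 to 1.58 ± 0.14 FPKM (log2 fold change 0.87, SE 0.16). This was 0.70 without LLC alone replicate 3 and 0.57 with the length trend removed. Ptpn22, known from lymphocytes, had a log2 fold change of 0.94 (SE 0.09) on counts but FPKM of 1.67 ± 0.17 and 1.88 ± 0.21 that overlapped. The gene length by which the authors divided was 2927 to 3424 bases in LLC alone and 5082 to 5767 bases with BMSCs. The 11 genes had a median log2 fold change of 0.19, and those of the receptor list 0.56.

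**Figure D4:**
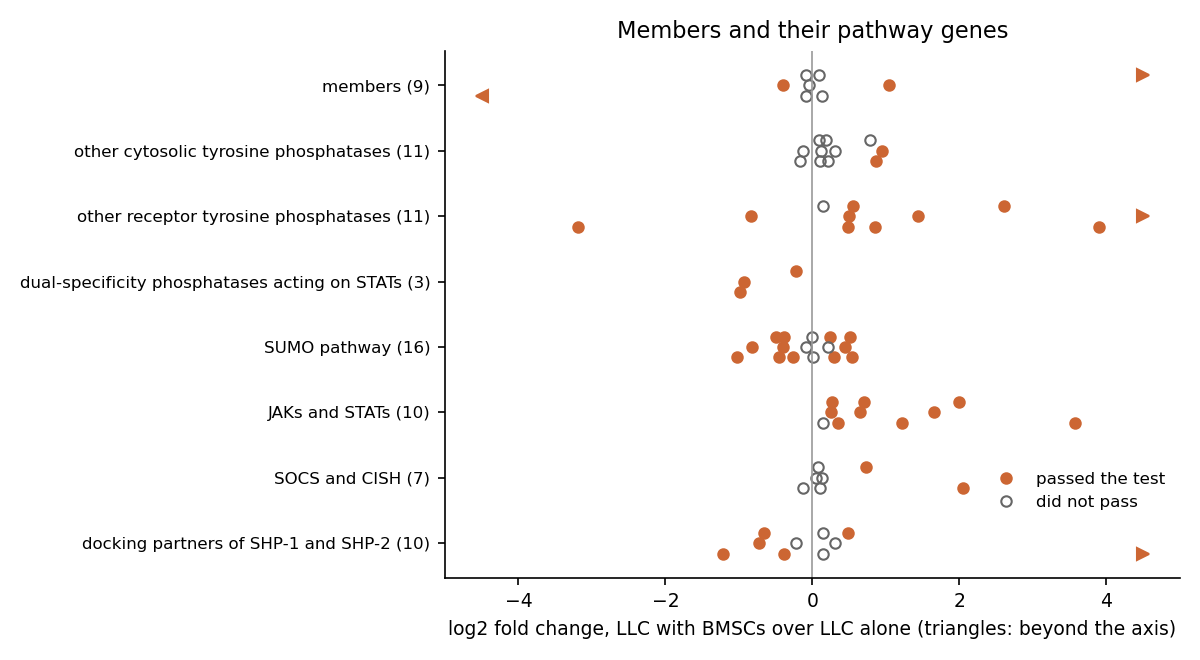
Log2 fold changes of the tested genes in the list of members and in 7 pathway lists, with the number tested in brackets, filled where the gene passed the edgeR test and open where it did not; triangles mark values beyond the axis, among them Ptprt and Ptprk. JAKs and STATs lie to the right of 0, the 3 dual-specificity phosphatases to the left, and the SUMO genes on both sides.

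SUMO genes, the machinery that PIAS ligases serve, went both ways, with 5 of 16 higher, 7 lower and 4 not past the test, beside 31.5% higher and 31.3% lower over all tested genes. Nothing particular to the list is read from that count. The modifier genes Sumo2 and Sumo3 were lower, the latter from 109 ± 3.14 to 62.4 ± 0.86 FPKM (log2 fold change -0.82, SE 0.05), while Sumo2 did not pass with the length trend removed. The SUMO proteases Senp1 and Senp2, which remove the modifier, rose from 10.5 ± 1.33 to 15.5 ± 0.17 FPKM (log2 fold change 0.54, SE 0.09) and from 14.9 ± 0.71 to 21.6 ± 0.80 FPKM (log2 fold change 0.51, SE 0.06). Senp1, whose transcript is long, was at 0.45 without LLC alone replicate 3 and at 0.30 with the length trend removed, and Senp2 at 0.48 and 0.38, all of which passed.

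Docking proteins that recruit SHP-1 and SHP-2 also went both ways, with 2 of 10 higher and 4 lower, so that 6 of 10 changed beside 62.9% of all tested genes. Sirpa, the inhibitory receptor of macrophages that binds SHP-1, was listed at 0 in all LLC alone libraries. It was at 1.18, 1.18 and 1.13 FPKM in LLC with BMSCs, at least 59.3-fold higher when LLC alone was set to 3 counts. Sirpa, counted among the higher genes, passed the filter on low counts only through the group with BMSCs, so its call could only go upward. Frs2, an adaptor of growth factor receptors, rose from 11.8 ± 2.10 to 16.7 ± 0.79 FPKM (log2 fold change 0.48, SE 0.12), with 0.35 without LLC alone replicate 3 and 0.28 with the length trend removed, both of which passed. The insulin receptor substrates fell, Irs2 from 3.11 ± 0.83 to 1.35 ± 0.13 FPKM (log2 fold change -1.21, SE 0.20) and Irs1 from 4.11 ± 0.61 to 2.52 ± 0.02 FPKM (log2 fold change -0.72, SE 0.10). Without LLC alone replicate 3 these were -1.42 and -0.84, and with the length trend removed -1.29 and -1.05.

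The pattern of Ptprt over the 6 libraries was most like those of P2rx3, Prss35 and Slc1a1, by the Euclidean distance between log2 CPM values centred on their means (0.38, 0.62 and 0.69). P2rx3 fell from 7.01 ± 0.44 to 0.20 ± 0.03 FPKM, Prss35 from 9.17 ± 0.59 to 0.32 ± 0.02 FPKM, and Slc1a1 from 0.90 ± 0.04 to 0.01 FPKM. These genes share the 6 libraries with Ptprt, and such distances describe these libraries only.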

How the data were processed

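Poly-A RNA of sorted RFP-positive cells was sequenced in 6 libraries, grouped by the sample labels. The authors deposited gene and transcript tables of estimated counts, which need not be whole, together with lengths and FPKM values. The submitters' processing notes name HISAT, StringTie, Cufflinks, GATK and the mm8 build, without roles or versions. The files hold no coordinates, so the GRCm38 positions given here come from GENCODE M21 and RefSeq by transcript identifier and symbol. The members and gene lists were chosen with earlier results of these data known.

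Estimated counts were rounded and tested with edgeR 4.0.16 in R 4.3.3 (TMM, filterByExpr, quasi-likelihood test, Benjamini-Hochberg over all tested genes or transcripts, threshold 0.05). The SE is the absolute log2 fold change over the square root of the test statistic. The 95% intervals take the normal quantile of it and are narrower than the quasi-likelihood test would give with so few libraries. A gene at 0 in a group was set to a floor of 3 counts per library, which covers counting error only. On simulated counts with 200 genes moved by 1 on the log2 scale in either direction, the gene test recovered 181, with 8 false among 189 calls. The transcript test recovered 34 of 200 changed transcripts, with 5 false among 39, and so missed most changes of that size there. In the data a far larger share passed, 62.9% of genes and 34.2% of transcripts. The Benjamini-Hochberg cutoff depends on that share, so these rates describe the sparse simulation and may not carry over. The alternatives used DESeq2 1.42.0, limma 3.58.1, other scalings, filters and pseudocounts, a replicate block, lowess removal of length trends, libraries left out or summed, and a stricter threshold.

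Genes named beyond the members were, per pathway list, the 2 largest rises and 2 largest falls among changed genes with a mean of at least 1 FPKM in 1 group, plus Pias4, Stat3 and Ptprc, and the 3 genes nearest to Ptprt. Other genes were named after their values were seen. Some genes that this rule names are not reported here.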

Additional observations from a re-analysis of the deposited data

How the results depend on the processing

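Of 452 alternative values of single genes and transcripts, 424 kept their direction and side of the threshold. Upward calls among the members numbered 2, or 1 where at least 10 counts were asked in every library, which dropped Ptprk. Over all tested genes they numbered 4210 of 13353, and 3758 of 12181 under that filter. With limma on log2(FPKM + 1) or log2(FPKM + 0.1) the 2 upward calls were Ptpn6 and Pias2 in place of Ptpn6 and Ptprk, since the filter on low FPKM dropped Ptprk. Downward calls numbered 2, or 1 with limma on log2(FPKM + 1) or log2(FPKM + 0.1), whose filter dropped Ptprt, 1 with the closest libraries summed, 1 under the strict rule (adjusted p under 0.001, absolute log2 change at least 1) and 4 with the length trend removed. As each library was left out there were 2 upward and 2 to 4 downward calls. The 4 downward calls, without LLC alone replicate 3, were Ptprt, Pias3, Ptpn11 and Pias1, and that library's trend over length was the strongest. Of all 13353 tested genes, 4183 were called lower in the main fit, 723 under the strict rule and 4573 with the length trend removed. Without LLC alone replicate 3 this was 4539 of 13541. With limma on log2(FPKM + 1) it was 3450 of 11010, and with the closest libraries summed 3305 of 13821. With the length trend removed, the log2 fold change of Ptpn1 was -0.011, that of Ptpn2 0.093 and that of Stat5b -0.020, and with limma that of Ptpn2 was 0.0010 on log2(FPKM + 1), filtered or not, and 0.0011 on log2(FPKM + 0.1). Ptpn2 ranged from -0.108 to 0.028 as libraries were left out, its transcript NM_008977 from -0.083 to 0.042, the Ptpn11 transcript NM_001109992 from -0.058 to 0.126 and the Pias2 transcript NM_008602 from -0.073 to 0.090, so these had no stable direction. Of the 18 tested member transcripts, 1 was called lower and 2 higher, beside 17.6% and 16.6% of all tested transcripts. As libraries were left out, 1 to 2 were called lower and 2 to 3 higher, the 3 without LLC alone replicate 3.

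No pairing by replicate number was seen, since the deviations of same-numbered libraries correlated at 0.08, -0.11 and 0.06. Those of differently numbered libraries correlated at -0.16 to 0.15. With 3 libraries per group such values cannot exclude a pairing. With the replicate number as a block, 2 members were called higher and 2 lower, and member transcripts called higher went from 2 to 1, as Ptprk's adjusted p became 0.064 (edgeR quasi-likelihood test, Benjamini-Hochberg). The pathway lists were also tried, after the data were seen, with each library left out, the block and the length trend removed. With the last, 1 other cytosolic phosphatase (Ptpn14) and 1 SOCS gene (Socs7) were called lower in place of 0, and with libraries left out SOCS genes called lower ranged from 0 to 1 (Socs4, without LLC alone replicate 3). At these depths 3 counts correspond to 0.065 to 0.0896 CPM, which limits Ptprk in LLC alone, where it was at 0.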
